A study of Rana pirica with 9 samples.

Results

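Myelin is the membrane sheath that glial cells wrap around axons, and it speeds the conduction of nerve impulses. Oligodendrocytes make it in brain and spinal cord, and Schwann cells make it in peripheral nerves. Of the 4 myelin protein genes sought here, mbp encodes myelin basic protein, which holds the inner membrane faces of compact myelin together in central and peripheral sheaths alike. The other 3 are known best from peripheral myelin in mammals: mpz encodes the adhesion protein that joins the outer membrane faces, pmp2 a fatty acid binding protein, and pmp22 a membrane protein with several spans that is also made outside the nervous system. Members were the probe sets whose single symbol in the platform annotation was one of these names after homeolog endings were removed. The rule found 5 probe sets of 3 genes among 15491 tested probe sets: 2 for mbp, 1 for pmp2 and 2 for pmp22. No probe set with 1 symbol was matched to mpz, which was not analysed here.

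The brains came from tadpoles of the frog Rana pirica that had not yet grown hind limbs. One group of 6 samples was kept for 8 days without predators, and one group of 3 samples was kept for 8 days with larval salamanders, which eat tadpoles; each sample pooled 10 brains. Labelled RNA was hybridized to one-colour Affymetrix arrays designed for the clawed frog Xenopus, so every probe set was read across species. The endings .L and .S mark the gene copies on the long and the short chromosome of each pair of related chromosomes in the duplicated genome of Xenopus laevis; which Rana transcript a probe set captured was not tested. The question was which transcripts in the brain differ between tadpoles kept with salamander larvae and tadpoles kept without them.

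Every value below is taken as a log2 MAS5 signal relative to the median control array of its probe set, so 0 is the control median and a difference of 1 is read as 2-fold. The table holds no absolute level, so neither the presence of myelin in these brains nor the levels of different genes could be compared. The median SD between replicate arrays was 0.96 over all probe sets. Poly-A spike-in controls divided the arrays into a set with high spike-ins (controls 2, 3 and 4, salamander 1 and 2; means of 1.27 to 1.69) and a set with low ones (controls 1, 5 and 6, salamander 3; means of -2.25 to -1.76). Array medians of the tested probe sets lay between -0.0084 and 0.0069.

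All 5 myelin probe sets had a lower mean in tadpoles kept with salamander larvae, and the difference was 2-fold or more in the 3 probe sets of pmp2 and pmp22. None passed the test. In limma over 15491 probe sets, 0 of the 5 had an adjusted p under 0.05, against 0% of all probe sets, and their adjusted p-values ran from 0.945 to 0.988; a linear model without variance moderation also called 0. A mean below the controls was found in 49.9% of all probe sets and a difference of 2-fold or more downwards in 8.65%. One of the 5, the pmp22.L probe set, had an unadjusted p under 0.05 in the lower direction, a result reached by 3.03% of all probe sets. The median difference was -1.19 over the 5 probe sets and 0.0016 over all probe sets. These 5 are not 5 separate observations, since 2 pairs share a gene. In whole brains, fewer cells of a type and less RNA per cell cannot be told apart.

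**Figure D1:**
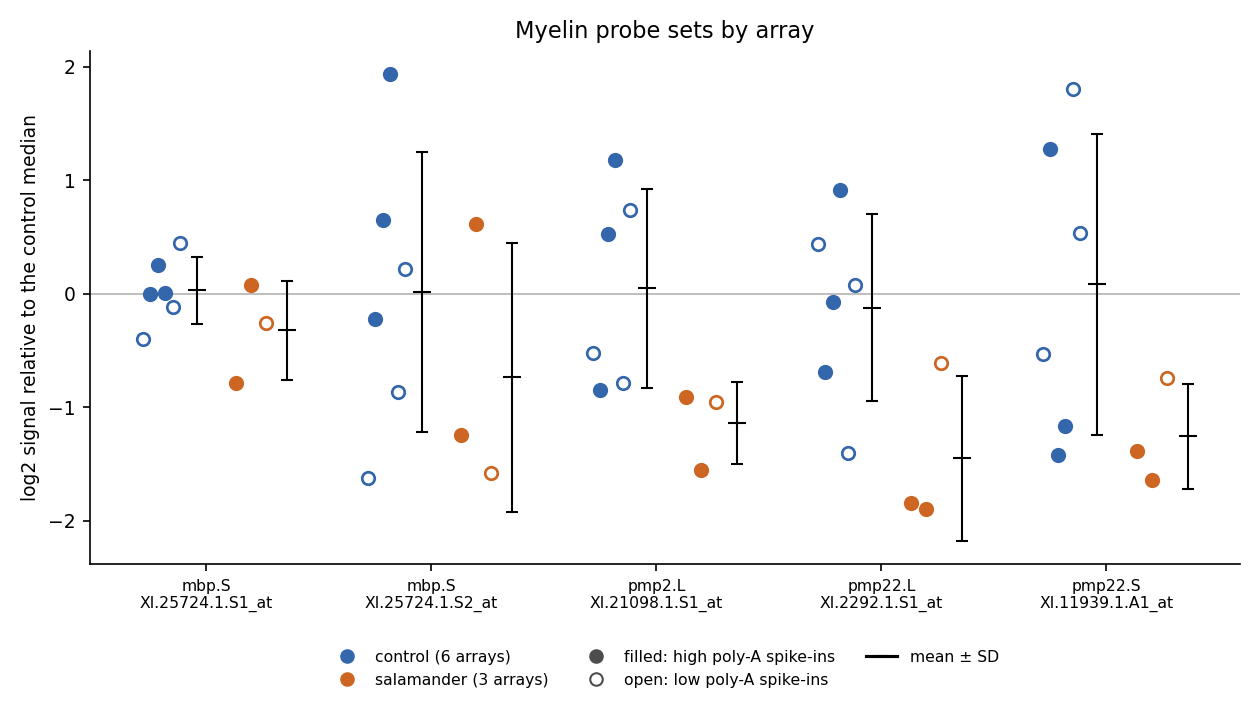
Each point is 1 array, plotted as its log2 signal relative to the control median (vertical axis) for the 5 myelin probe sets (horizontal axis), with blue for the 6 control arrays, orange for the 3 salamander arrays, filled or open points for high or low poly-A spike-ins, and bars for mean ± SD. The salamander arrays lie below all controls in pmp2.L alone, where they sit between -1.56 and -0.91, and the first mbp.S probe set shows the narrowest spread.

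Myelin basic protein, the member that central myelin also uses, was read by a pair of probe sets for the copy mbp.S. In the first (Xl.25724.1.S1_at), controls 1 to 6 stood at -0.40, -0.0031, 0.25, 0.0031, -0.11 and 0.45, and salamander arrays 1 to 3 at -0.79, 0.079 and -0.26. Salamander array 1 was the lowest of all 9, while the other two lay inside the control range. The group means were 0.03 ± 0.29 (SD, n = 6) and -0.32 ± 0.44 (SD, n = 3), a difference of -0.35 (SE 0.42; limma adjusted p = 0.988). The 95% confidence interval from -1.26 to 0.56 excluded a 4-fold change either way; no other myelin probe set had an interval that narrow. This probe set was also the steadiest of the 5: its replicate SD of 0.34 was undercut by 4.94% of all probe sets.

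In the second mbp.S probe set (Xl.25724.1.S2_at), the controls stood at -1.63, -0.22, 0.65, 1.93, -0.87 and 0.22 and the salamander arrays at -1.25, 0.62 and -1.58. All 3 salamander arrays fell within the control range. Rounding steps in the deposited numbers placed at least 2 salamander arrays and 3 controls of this probe set under a MAS5 signal of 256, and none of the first probe set. Its difference was -0.75 (SE 0.77; interval -2.43 to 0.92; limma adjusted p = 0.987), with group means of 0.01 ± 1.24 (SD, n = 6) and -0.74 ± 1.18 (SD, n = 3). Both mbp.S probe sets had the same sign on 9 of 9 arrays, although the second swung further, by up to 1.93 from the first on control array 4. Their root mean square difference over the 9 arrays was 0.96. Its median was 1.36 over the 4219 pairs of probe sets that share a gene name on this array. To named probe sets of other genes, the median was 1.01 for the first mbp.S probe set and 1.47 for the second. The first thus lay about as far from the second as from a typical probe set of another gene.

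Of the genes of peripheral myelin, pmp2, whose protein carries fatty acids in Schwann cell myelin, had 1 probe set, for pmp2.L (Xl.21098.1.S1_at). Its controls stood at -0.52, -0.85, 0.52, 1.18, -0.79 and 0.74, and its salamander arrays at -0.91, -1.56 and -0.96. Here the groups did not overlap, as was the case with the salamander arrays below in 1.24% of all probe sets. The gap was narrow: the highest salamander array, at -0.91, lay just under control array 2, at -0.85. The difference was -1.19 (SE 0.56; interval -2.41 to 0.04), or 2.28-fold lower, from 0.05 ± 0.87 (SD, n = 6) to -1.14 ± 0.36 (SD, n = 3), with limma p-values of 0.0562 unadjusted and 0.945 adjusted. An exact two-sided permutation test over the 9 arrays gave p = 0.0238 without adjustment, the smallest it can give with 84 splits. The rounding steps placed 3 of the 3 salamander arrays and at least 3 of the 6 controls under a signal of 256, so this fold rests on signals under 256 in all salamander arrays. Such signals were common: only 7323 of the 15491 probe sets had at most 1 number on a rounding step that points to a low signal. The scaling is not given, so how weak a signal of 256 is on these arrays is not known.

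Both Xenopus copies of pmp22 had a probe set. In mammals, pmp22 is the gene whose dosage matters in inherited peripheral neuropathies. For pmp22.L (Xl.2292.1.S1_at) the controls stood at 0.43, -0.69, -0.07, 0.92, -1.41 and 0.07 and the salamander arrays at -1.84, -1.90 and -0.61. Salamander arrays 1 and 2 lay below every control, whereas array 3 lay above controls 2 and 5. The difference was -1.33 (SE 0.57; interval -2.58 to -0.07), or 2.51-fold lower, with limma p-values of 0.0400 unadjusted and 0.945 adjusted, and p = 0.0714 in the exact permutation test. The means were -0.12 ± 0.82 (SD, n = 6) and -1.45 ± 0.73 (SD, n = 3).

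For pmp22.S (Xl.11939.1.A1_at) the controls ranged more widely, at -0.53, 1.27, -1.42, -1.17, 1.81 and 0.53, and the salamander arrays stood at -1.39, -1.64 and -0.74. Only salamander array 2 lay below all controls. The difference of -1.34 (SE 0.73; interval -2.94 to 0.26; limma adjusted p = 0.973) was close to that of pmp22.L, with means of 0.08 ± 1.33 (SD, n = 6) and -1.26 ± 0.46 (SD, n = 3). The rounding steps placed at least 2 salamander arrays and 2 controls under a signal of 256 in each pmp22 probe set.

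The copies of pmp22 did not go together from array to array. They had the same sign on 5 of 9 arrays and a root mean square difference of 1.56. To named probe sets of other genes, the median was 1.39 for pmp22.L and 1.52 for pmp22.S, so the copies were no more alike than that. On control array 5 the copies lay 3.21 apart, at -1.41 for pmp22.L and 1.81 for pmp22.S. When they were averaged, these opposite deviations cancelled: the control SD of the average was 0.40, where uncorrelated deviations of the same size would give 0.78. The averaged gene had a difference of -1.33 (SE 0.41; interval -2.23 to -0.43) and an unadjusted p of 0.00746, a level that neither probe set reached by itself. Its adjusted p over 6485 genes in limma was 0.774. Of all genes, 2.73% had an unadjusted p under 0.05 in the lower direction, a looser limit than 0.00746. For pmp2, with its 1 probe set, limma over genes gave an unadjusted p of 0.0461 and an adjusted p of 0.993. Over probe sets the same values had an unadjusted limma p of 0.0562, so which side of 0.05 pmp2 fell on depended on the level of the fit. The likest pair among the 5 probe sets was pmp2.L with pmp22.L, with a root mean square difference of 0.60 and no array over 1 apart.

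**Figure D2:**
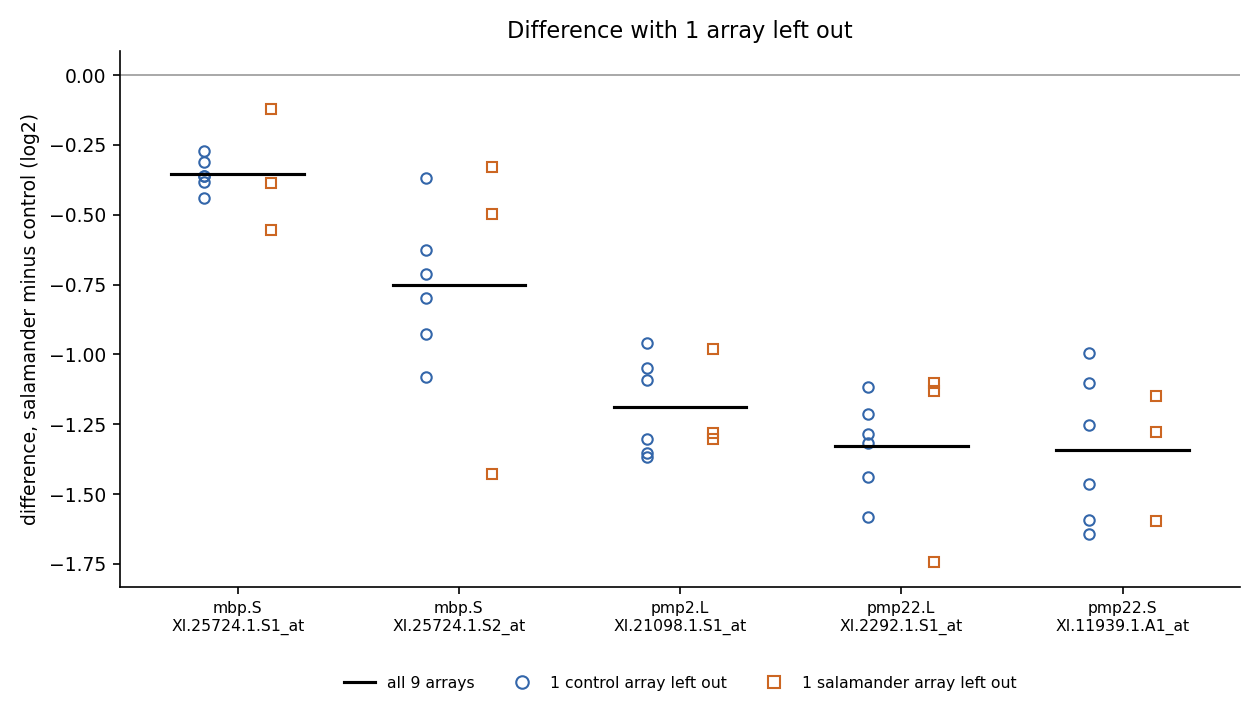
The difference between groups (log2, vertical axis) for each myelin probe set is drawn with all 9 arrays (black line), with 1 control left out (blue circles) and with 1 salamander array left out (orange squares). No point crosses 0, and pmp22.L spans -1.74 to -1.10, while the second mbp.S probe set spans -1.43 to -0.33.

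With 1 array left out at a time, all 5 differences stayed below 0. For the first mbp.S probe set the extremes were -0.56 (salamander array 2 left out) and -0.12 (salamander array 1 left out), and for the second -1.43 (salamander array 2) and -0.33 (salamander array 3). Differences in pmp2.L ran from -1.37 to -0.96, without controls 2 and 4, and in pmp22.S from -1.64 to -0.996, without controls 3 and 5. The pmp22.L extremes were -1.74, with salamander array 3 left out, and -1.10, with salamander array 2 left out. The unadjusted p of pmp22.L was under 0.05 in 3 of the 9 limma fits with 1 array left out and not in the other 6 (without control 1, 3, 4 or 6 or salamander array 1 or 2), where it reached up to 0.133. The unadjusted p of pmp2.L was under 0.05 in 3 of these 9 fits and that of pmp22.S in 1. The count of probe sets under 0.05 was thus 0 without control 4 or 6 or salamander array 1 or 2, and 2 without control 2 or 5.

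Within the spike-in sets the directions held, in values without a test. The difference for pmp2.L was -1.52 with high spike-ins and -0.77 with low ones, where salamander array 3 is the lone salamander array, and the groups were apart in both sets. For pmp22.L it was -1.92 in the high set, where the groups lay apart, and -0.32 in the low set, where they overlapped. The other 3 probe sets ranged from -1.10 to -0.44 in the high set and from -1.35 to -0.24 in the low set. Of these, pmp22.S had groups apart in the low set alone, and both mbp.S probe sets overlapped in each set. With so few arrays per set, groups come apart easily, and the share of all probe sets apart within a set was not counted.

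Central and peripheral myelin genes were compared within each array, as mbp minus the mean of pmp2 and pmp22. Between groups, mbp differed by -0.55 and the peripheral mean by -1.26. The within-array value was 0.01 ± 0.48 (SD, n = 6) in controls and 0.72 ± 1.13 (SD, n = 3) with salamander larvae, so the peripheral genes were lower by a further 0.71 on average. No test is given, because the genes were chosen with earlier results of these data known. By array, controls 1 to 6 stood at -0.73, 0.17, 0.56, 0.44, -0.20 and -0.19, and salamander arrays 1 to 3 at 0.25, 2.01 and -0.10. Thus 2 of the 3 salamander arrays lay inside the control range, and without salamander array 2 the value fell from 0.71 to 0.061. In this value mbp is the mean of its 2 probe sets, which differed here. Without salamander array 2, the first mbp.S probe set differed between groups by -0.56, the second by -1.43 and the peripheral mean by -1.05. The within-array value was not computed for each mbp.S probe set apart.

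Salamander array 2 combined the lowest value of all 9 arrays in 3 of the 3 peripheral probe sets with mbp at 0.35, above the control mean. The share of all probe sets in which this array was lowest was not counted, and 2 of the 3 peripheral probe sets share the gene pmp22. On salamander arrays 1 and 3, mbp averaged over its 2 probe sets (-1.02 and -0.92) and the peripheral mean (-1.26 and -0.82) were lower by similar amounts. The mbp.S probe sets taken apart were less alike: the first stood at -0.79 and -0.26 on these arrays and the second at -1.25 and -1.58. Control array 1 had an averaged mbp of -1.01, so the -0.92 of salamander array 3 lay inside the control range. The peripheral mean itself lay at -0.82 or below on all 3 salamander arrays and at -0.29 or above on all controls, a separation that the choice of these genes can set. Averaged pmp22 by itself overlapped, with control array 3 at -0.75 and salamander array 3 at -0.68. How often averages of other genes come apart in this way was not counted. The extra peripheral difference was 0.74 in the high spike-in set and 0.27 in the low set.

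**Figure D3:**
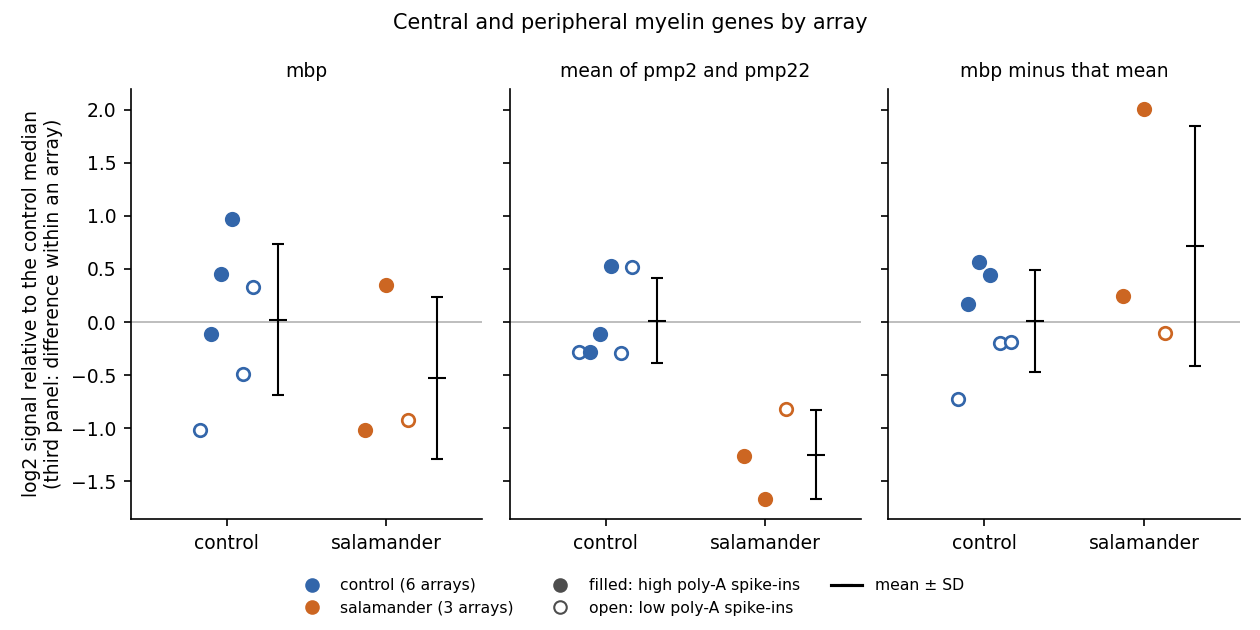
Each point is 1 array (blue for 6 controls, orange for 3 salamander arrays, filled or open for high or low poly-A spike-ins, bars for mean ± SD), with log2 signal relative to the control median on the vertical axis of the left and middle panels and the difference within an array in the right panel. Salamander array 2 stands at 2.01 in the right panel, while the other salamander arrays lie among the controls at 0.25 and -0.10.

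To show which transcripts had the likest profile, the nearest named probe sets of other genes were taken by root mean square difference over the 9 arrays. The first mbp.S probe set was nearest to myg1.S (0.20) and s100pbp.L (0.21), against a median of 1.01 over 9302 named probe sets, and the second to mif4gd.S (0.51) and c1orf52.L (0.55). For pmp2.L they were prex1.L (0.45) and bud13.L (0.46), for pmp22.L eef1aknmt.S (0.42) and top2a.L (0.43), and for pmp22.S hand1.L (0.38) and znf706l.L (0.55). None of these 10 is on the wider list below, but that list holds only 32 of the 9304 tested probe sets with 1 symbol. Its absence among so few neighbours therefore says little. Nearness favours probe sets of small spread and, over so few arrays, is a description of these arrays.

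The wider list covered 59 other genes of myelin, of the cells that make it and of their contact with axons, of which 20 had 32 probe sets. Some of these genes, such as gpm6a, are also made by neurons, so the list does not read myelin-forming cells alone. Limma called 0 of the 32, with adjusted p-values from 0.884 to 0.999; 14 were lower and 18 higher in the salamander group, with a median difference of 0.20. One had an unadjusted p under 0.05, against 5.15% of all probe sets. No probe set with 1 symbol was matched to mag, mog, olig2 or erbb3, so the adhesion proteins of the inner and outer surfaces of central myelin were not analysed here.

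Among membrane proteins of the list, 9 of 11 probe sets, from 7 genes, were higher in the salamander group. The other 2 were lower, as were 49.9% of all probe sets. Differences ran from -0.56 for plp2.S to 1.03 for mal.L. In limma 0 passed and 0 had an unadjusted p under 0.05. These 11 probe sets are not separate observations, since several read the same copy, gpm6a.L. They include the neuronal and glial membrane glycoproteins gpm6a and gpm6b, mal, a lipid raft protein of myelin-forming cells, and mpzl2 and mpzl3, which resemble mpz in sequence. In the group of lipid enzymes and iron transport, 4 of 5 probe sets were lower. One of them reads fa2h.L, for the enzyme that adds hydroxyl groups to the fatty acids of myelin galactolipids. The fa2h.L controls stood at -1.63, 0.51, 0.07, -1.34, 0.0016 and -0.0016, and the salamander arrays at -1.53, -2.84 and -0.43. The groups overlapped, and the difference was -1.21 (SE 0.65; limma adjusted p = 0.973), or -0.59 with salamander array 2 left out. Transferrin, tf.L, which carries iron, differed by -0.92 (SE 0.57; limma adjusted p = 0.986), and by -0.51 once salamander array 2 was left out.

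Of 9 probe sets for transcription and RNA factors, 6 were lower and 3 higher. The probe set of qki.L, an RNA-binding protein needed for myelination in mice, had the smallest p of the list. Its controls stood at 0.71, 0.09, -0.09, -1.92, -2.13 and 0.44, and its salamander arrays at 1.46, 0.92 and 1.38, above all controls. Its difference was 1.74 (SE 0.68; unadjusted p = 0.0266 and adjusted p = 0.884 in limma), and it was 1.02 on replicates 1 to 3 alone, with the replicate block or without it, where its unadjusted limma p was not under 0.05. Nor was that p under 0.05 without salamander array 1 or 3, or without variance moderation. The probe set of the other copy, qki.S, differed by -0.24 (SE 0.40) with overlapping groups. Groups lay apart in 2 probe sets of the wider list, qki.L and a gpm6a.L probe set that differed by only 0.32 (SE 0.38). How many of all probe sets had the salamander arrays above all controls was not counted, so these 2 cannot be set against a share. The share with the salamander arrays below all controls was 1.24%. The zinc finger factor yy1.L stood at 1.14 (SE 0.57; limma adjusted p = 0.950), and its other copy, yy1.S, at -0.048 (SE 0.76) with overlapping groups.

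For sox10.L and egr2.L the difference was smaller than its standard error. In sox10.L, the factor that both oligodendrocytes and Schwann cells need, it was -0.19 (SE 0.73; interval -1.79 to 1.40), and its sign turned with 1 array left out, up to 0.16 without salamander array 1. In egr2.L, the switch of Schwann cell myelination, it was -0.37 (SE 0.53; interval -1.54 to 0.79), and without salamander array 3 it was 0.0086. Of 7 probe sets for receptors and axon contact, 2 were lower and 5 higher, from -1.45 for a pdgfra.L probe set to 0.97 for cntn1.S. The second pdgfra.L probe set stood at -0.025, and the other copy, cntn1.L, at 0.032. In limma 0 of the 7 passed and 0 had an unadjusted p under 0.05.

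**Figure D4:**
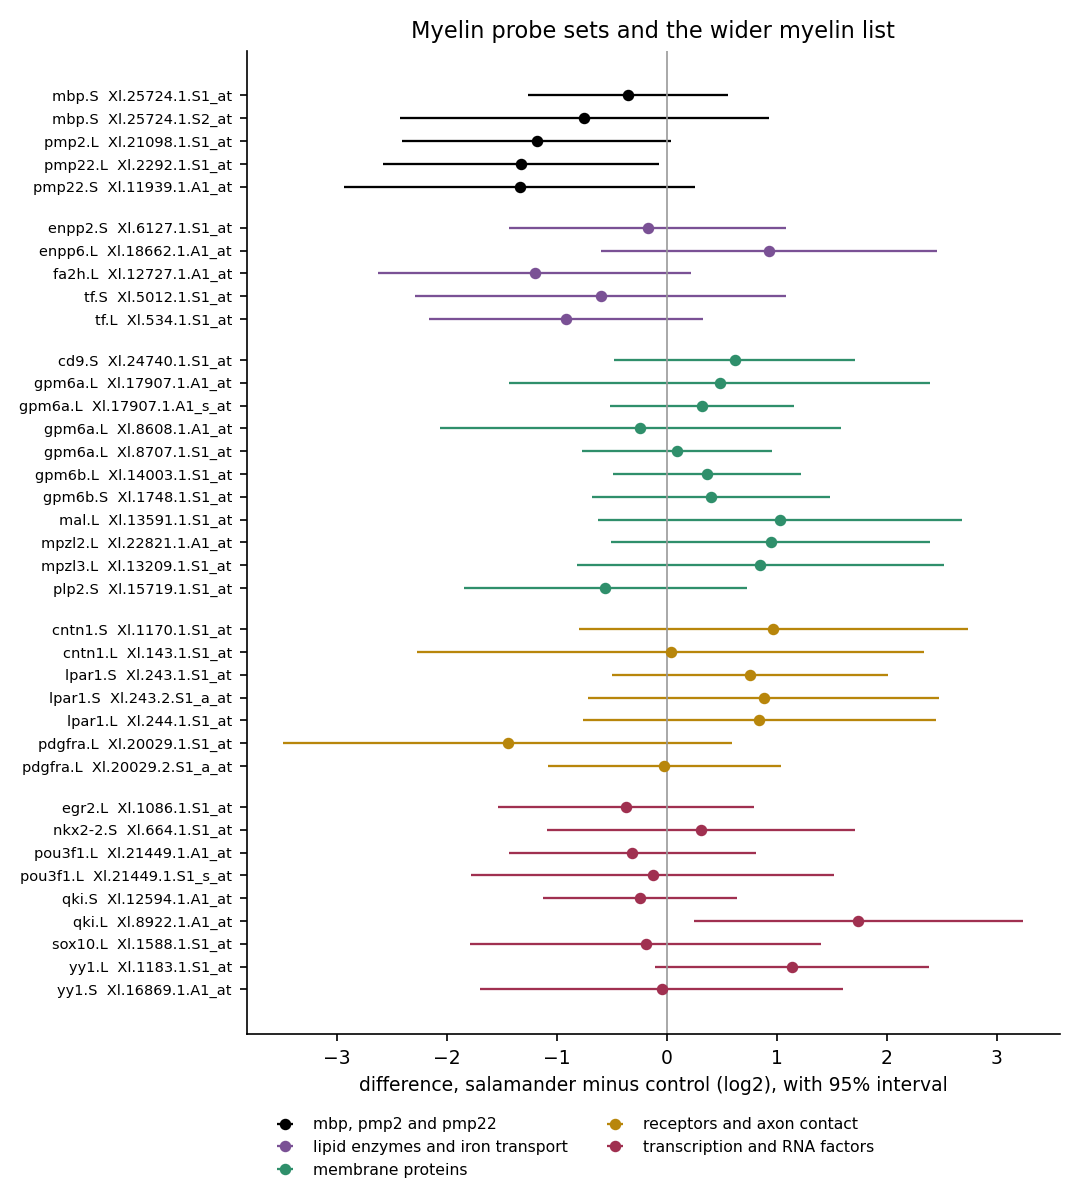
Points give the difference, salamander minus control (log2, horizontal axis), with the 95% confidence interval in limma for the 5 myelin probe sets (black) and the 32 of the wider list (coloured by role). The 5 black points all lie below 0, between -1.34 and -0.35, while the wider list spreads from -1.45 to 1.74 on both sides.

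Marker lists of other cell types were read from the same arrays. Of 7 measured connective tissue and meninges genes, whose cells can also make pmp22, 4 were lower and 0 passed in limma; the list mean lay between -0.58 and 0.19 in controls and between -1.10 and -0.42 with salamander larvae. The neuron list, with 8 measured genes, had 2 lower, and its mean lay between -0.17 and 0.19 in controls and between 0.18 and 0.77 with salamander larvae. For erythrocytes 4 of 5 genes were lower, for skeletal muscle 2 of 7, for astroglia and ependyma 1 of 2, and for skin 0 of 1. The groups overlapped in all 6 list means, and of their 30 measured genes 0 passed in limma and 3 had an unadjusted p under 0.05, a level reached by 4.81% of all genes. With no absolute level, it could not be seen which markers were absent, and the part of these cell types in the myelin differences was not tested.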

How the data were processed

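RNA from 9 pooled brain samples, 6 control and 3 salamander, was read on one-colour Affymetrix arrays. MAS5 computed the signals, per the submitters' processing notes; the sources used here give neither its version nor the scaling between arrays. In the deposited table are values of 15611 probe sets, taken here as log2. Each row's control median was 0 (largest departure 9.54e-07), from which the centring and, by its rounding steps, the log2 base were read; no label states them. Groups came from the sample titles. The labels call the samples biological replicates. Whether pools came from separate tanks is not given. The p-values set each difference against the spread between these samples. If pools shared tanks, the spread between tanks is not covered.

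The 120 Affymetrix control probe sets were left out and limma (lmFit and eBayes, no trend) was fitted to 15491, with Benjamini-Hochberg adjustment over all of them and a threshold of 0.05. Names came from the platform annotation, which gave 9304 tested probe sets 1 symbol; 6187 were unnamed here. A number on a step too fine for a log2 value of 8 or more means that the array's own signal or the control median was under 256, so arrays at or below both were counted as under 256; others may be too. Probe sets with at most 1 such number, 7323, were called brighter. Exact permutation tests were two-sided over all 84 splits. The named genes were all myelin probe sets and the 2 wider-list probe sets with the smallest p on each side. Also named were sox10, egr2, further genes that were not matched, and the 2 nearest probe sets to each myelin probe set. Other wider-list probe sets in the text were chosen after their values were seen. They are the extremes and examples of each role group, and the other probe sets of qki, yy1, pdgfra and cntn1. The members and lists were chosen with earlier results of these data known. The fit was tested on simulated data. Alternatives were quantile normalization, median centring, no variance moderation, array weights, brighter probe sets, spike-in or replicate blocks, gene means and leaving out each array. R 4.3.3, limma 3.58.1, Python 3.11.15, scipy 1.17.1 and matplotlib 3.10.9 were used. The number of arrays limits the precision.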

Additional observations from a re-analysis of the deposited data

How the results depend on the processing

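Leaving out alternatives that repeat the difference of a probe set by construction, the 5 myelin differences stayed below 0 in 84 of 84 alternative values, from -1.92 to -0.12, and no limma adjusted p was under 0.774. These values are not separate observations. They reuse the same 9 arrays, and the gene means of mbp and pmp22 each count for both of their probe sets. Calls stayed at 0 over all probe sets, the members and the wider list under all 17 refits, including each array left out. The number of myelin probe sets with an unadjusted p under 0.05 was 1 as reported. It was 0 after quantile normalization, without variance moderation, with the spike-in set as a block and on replicates 1 to 3 alone. It ranged from 0 to 2 with 1 array left out. The brighter probe sets keep 1 of the 5, the first mbp.S probe set, and leave out those of pmp2 and pmp22. The 0 found there therefore says nothing about pmp22.L. The difference of pmp22.L within the low spike-in arrays was -0.32; that set holds 1 salamander array. Array median centring and array weights left the count at 1. The extra peripheral difference ranged from 0.061 to 1.12 with 1 array left out. It was 0.59 after quantile normalization, 0.63 for pmp2 alone, 0.78 for pmp22 alone (added after seeing the data) and 0.73 over all peripheral probe sets.

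No pairing of the samples by replicate number was seen: deviations of same-numbered arrays correlated at 0.0012, 0.0149 and 0.0025 over probe sets. These values do not show how the samples were collected. With the replicate block, on replicates 1 to 3, qki.L was 1.02, 0 myelin probe sets had an unadjusted p under 0.05, 0 probe sets were called, and sox10.L and egr2.L turned to 0.11 each, as they did on the same arrays without the block. With 1 array left out, sox10.L ran from -0.77 to 0.16 (0.15 without control 6 and 0.027 without salamander array 2) and egr2.L from -0.65 to 0.0086. The cause was not tested.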
